A study of Rattus norvegicus with 11 samples.

Results

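Immediate early genes were followed in rat dorsal root ganglia, where the somata of sensory neurons sit, after a nerve injury that models neuropathic pain. The set was chosen by gene symbol from a list of 10: the Fos family (Fos, Fosb, Fosl1, Fosl2), the Jun family members Junb and Jund, the zinc finger gene Egr1, the nuclear receptor gene Nr4a1, and Ier2 and Btg2. Of these, 8 were rows of the table of 16811 genes and all 8 passed the filter on low values that left 12085 genes for testing; Fosb and Fosl2 were not analysed here. Total RNA from Sprague-Dawley animals gave 11 libraries in 3 groups. Sham ganglia were controls from the right side (n = 4), SNL ganglia came from the left side after spinal nerve ligation (n = 4), and SNL plus UNC0638 ganglia came from the left side of ligated rats given UNC0638, an inhibitor of the histone methyltransferases G9a and GLP (n = 3). All animals were of one strain, no group received the inhibitor without ligation, and ligation and body side cannot be told apart. The sources used here give neither age, sex, time after ligation, dose of UNC0638 nor whether a library was 1 animal or a pool, and p-values therefore measure only the spread among libraries, which may be technical.

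Immediate early genes are switched on within minutes of a stimulus, from transcription factors already present in the cell and without new protein synthesis. Fos proteins pair with Jun proteins through a leucine zipper to form the factor AP-1, and Egr1, Nr4a1 and AP-1 then change the expression of slower genes. In neurons they are used as markers of recent activity, and in the ganglion Jun and Atf3 are known as markers of axon injury.

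The deposited values, called scaled counts here, are counts per gene after the authors' scaling of each library by 1 factor. They summed to between 9450045 and 11347920 in a library, from 6127802 to 24367066 reads as estimated from the smallest step between values. Sensory neuron markers (17 genes, none at 0 in any library) summed to 414400 to 534000 in Sham, 213400 to 300500 in SNL and 186600 to 294200 in SNL plus UNC0638, as the tissue label has it. In whole ganglia, fewer cells of a type and less RNA per cell cannot be told apart. A few libraries stood apart. In SNL plus UNC0638 replicate 1, 18 skeletal muscle genes summed to 84330 scaled counts, against 328 to 819 in the other 10 libraries. Over the 12085 genes, which are not independent replicates, the deviations of Sham replicate 3 from its group mean correlated with those of SNL replicate 3 (r = 0.431), and those of SNL replicate 3 with those of SNL plus UNC0638 replicate 1 (r = 0.429).

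RefSeq promoter sequences (build GRCr8, 250 bases before to 50 after the gene start) were at hand for 7 of the 8 genes; Fos had none. The 5 printed here are those with a match to TGACGTCA, the CArG box or an Egr1 site, and 2 short DNA elements, the CArG box bound by serum response factor and the cAMP response element bound by CREB and its relatives, are textbook control elements of such genes. Capitals mark matches, on either strand, to the cAMP response element TGACGTCA, to the shorter TGACG that it contains, to TGCGTCA, which also contains the reverse complement of TGACG, to the CArG box, and to the Egr1 sites GCGGGGGCG and GCGTGGGCG. The search for TGCGTCA was added after these sequences had been seen.

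Egr1 (GRCr8 chr18:26736828-26737127, plus strand): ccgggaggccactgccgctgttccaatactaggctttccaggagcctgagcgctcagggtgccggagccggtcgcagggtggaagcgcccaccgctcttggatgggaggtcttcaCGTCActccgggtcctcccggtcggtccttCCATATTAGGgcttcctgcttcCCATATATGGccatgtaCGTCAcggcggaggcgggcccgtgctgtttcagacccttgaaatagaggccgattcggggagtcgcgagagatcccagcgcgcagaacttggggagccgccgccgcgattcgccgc
Ier2 (GRCr8 chr19:40399123-40399422, plus strand): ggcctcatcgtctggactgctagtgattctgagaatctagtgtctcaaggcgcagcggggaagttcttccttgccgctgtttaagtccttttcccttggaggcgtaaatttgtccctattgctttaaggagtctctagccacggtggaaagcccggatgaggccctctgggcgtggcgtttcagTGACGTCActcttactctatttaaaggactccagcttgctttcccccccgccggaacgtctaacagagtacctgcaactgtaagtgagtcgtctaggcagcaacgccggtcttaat
Btg2 (GRCr8 chr13:48087641-48087940, minus strand): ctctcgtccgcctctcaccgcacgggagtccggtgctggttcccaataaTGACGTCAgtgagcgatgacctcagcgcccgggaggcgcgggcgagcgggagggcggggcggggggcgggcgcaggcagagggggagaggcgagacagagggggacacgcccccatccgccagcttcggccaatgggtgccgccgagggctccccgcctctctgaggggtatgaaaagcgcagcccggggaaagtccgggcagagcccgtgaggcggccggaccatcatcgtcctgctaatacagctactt
Nr4a1 (GRCr8 chr7:134259888-134260187, plus strand): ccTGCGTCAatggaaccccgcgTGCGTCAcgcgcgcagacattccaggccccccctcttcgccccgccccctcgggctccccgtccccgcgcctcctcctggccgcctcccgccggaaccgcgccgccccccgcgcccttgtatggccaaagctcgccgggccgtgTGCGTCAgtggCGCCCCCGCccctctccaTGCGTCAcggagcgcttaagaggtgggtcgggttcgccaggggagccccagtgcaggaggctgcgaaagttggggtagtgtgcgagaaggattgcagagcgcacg
Jund (GRCr8 chr16:18769722-18770021, minus strand): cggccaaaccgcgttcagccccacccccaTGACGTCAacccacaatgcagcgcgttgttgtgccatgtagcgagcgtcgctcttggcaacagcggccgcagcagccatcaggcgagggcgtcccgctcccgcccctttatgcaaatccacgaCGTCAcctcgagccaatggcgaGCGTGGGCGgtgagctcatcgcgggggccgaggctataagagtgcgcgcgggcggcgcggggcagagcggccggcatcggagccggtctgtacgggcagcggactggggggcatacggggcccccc

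The shorter motif TGACG was found in all 7 windows, and in 21.2% of the 33469 RefSeq promoter windows of this length. The whole element TGACGTCA was found in Ier2, Btg2 and Jund, 3 of 7, and in 1.83% of all windows. The Egr1 window held 2 CArG boxes, CCATATTAGG and CCATATATGG, 105 and 83 bases before the gene start, and was the only one of the 7 with this motif, which 1.64% of all windows hold. Nr4a1 held TGCGTCA 4 times and Fosl1 2 times, against 1.9% of all windows with at least 1 match. Sites for Egr1 itself were matched in Nr4a1 and Jund (3.2% of all windows), and the AP-1 sites TGACTCA and TGAGTCA in none of the 7 (4.63% of all windows). The Junb window held a single TGACG. These coordinates belong to a later build than rn4, the build of the data, and a match is a run of letters and not a measured binding site.

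SNL against Sham, where ligation and body side differ together, gave 6 of the 8 genes higher. These were Fos, Egr1, Btg2, Junb, Ier2 and Nr4a1, by 5.91-fold to 2.09-fold in group means. None of the 8 was called lower. Fosl1 and Jund missed the threshold. A gene was called at an adjusted p under 0.05, from limma fitted to log2(scaled count + 1) over all 12085 genes, and 24.8% of these genes were called higher and 23.4% lower in this comparison. The median log2 difference of the 8 genes was 1.38, against -0.00326 over all genes tested. Without an adjustment all 8 had a p under 0.05 (55.7% of all genes tested), each in the upward direction, and limma-voom on estimated reads called 6 higher and 0 lower.

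**Figure D1:**
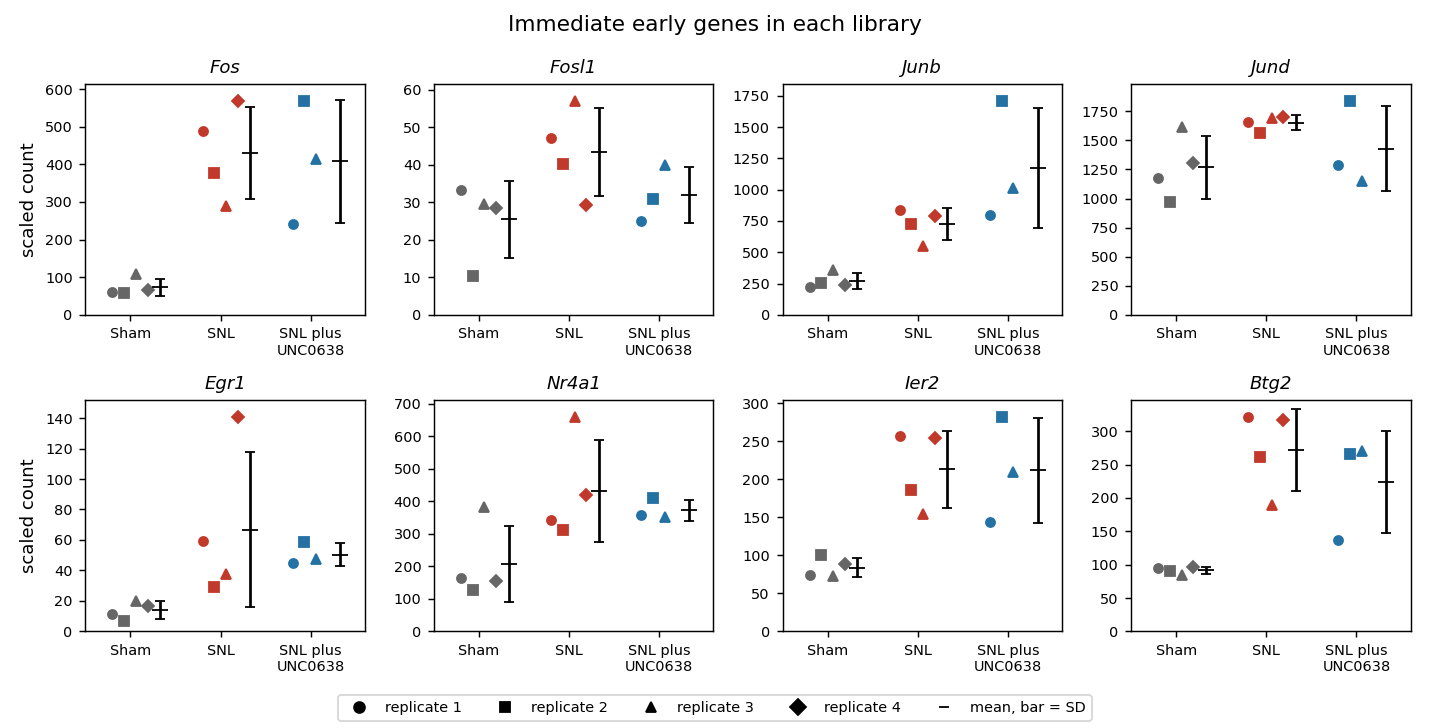
Scaled counts of the 8 immediate early genes in every library, by group, with a symbol per replicate number and the group mean with its SD in black; each y axis starts at 0. For Fos, Junb, Egr1, Ier2 and Btg2 every SNL and every SNL plus UNC0638 library lies above every Sham library, while Fosl1, Jund and Nr4a1 overlap.

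In the Fos family, Fos, which encodes the prototype AP-1 partner, stood at 59.8, 59.1, 108 and 65.3 scaled counts in Sham replicates 1 to 4. In SNL replicates 1 to 4 it stood at 488, 376, 291 and 569, and in SNL plus UNC0638 replicates 1 to 3 at 241, 568 and 415. All 7 libraries of ligated ganglia were thus above the highest Sham library. The change from Sham (72.9 ± 23.2, SD, n = 4) to SNL (431 ± 123, n = 4) was 2.55 on the log2 scale (SE 0.29, adjusted p = 0.000122). Fosl1, which encodes Fra-1, a family member that lacks the transactivation domain of Fos, stood at 10.2 to 33.4 in Sham and 29.2 to 57.1 in SNL. The groups overlapped, and the difference of 0.83 (SE 0.36) missed the threshold (adjusted p = 0.0734). Its values rested on 9 to 94 estimated reads per library.

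Of the Jun family, Junb, whose product pairs with Fos proteins and can restrain the activity of Jun, stood at 221, 251, 361.5 and 237 in the 4 Sham libraries and at 839, 728, 547 and 789 in the 4 SNL libraries. The groups did not overlap, and the log2 difference was 1.44 (SE 0.24, adjusted p = 0.000539). Jund, a broadly expressed family member that depends less on stimulation, went from 1268 ± 268 to 1652 ± 63.4 (log2 difference 0.40, SE 0.17, adjusted p = 0.0674). The highest Sham library for Jund was replicate 3 at 1614, inside the SNL range of 1561 to 1699. Without that library Jund passed the threshold (0.53, adjusted p = 0.015).

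Egr1, a zinc finger transcription factor of the serum response, stood at 11.1, 6.82, 20.3 and 16.9 in Sham and at 59.3, 29.2, 37.5 and 140.5 in SNL. The SNL libraries all lay above Sham but spread widely, with a coefficient of variation of 76.3%. The log2 difference was 2.03 (SE 0.45, adjusted p = 0.00348), from 6 to 22 estimated reads per Sham library. Nr4a1, which encodes the orphan nuclear receptor Nur77, stood at 164, 127, 382 and 155 in Sham and at 341, 311, 658 and 418 in SNL. Replicate 3 was the highest in both groups, and the Sham replicate 3 value lay above 2 SNL libraries. The log2 difference of Nr4a1 was 1.13 (SE 0.32, adjusted p = 0.0118).

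Ier2, a small nuclear protein gene of the early response, stood at 73.7, 99.98, 73.2 and 88.4 in Sham and at 257, 186.5, 155 and 254.5 in SNL (log2 difference 1.32, SE 0.23, adjusted p = 0.000759). Btg2, which encodes an antiproliferative protein that recruits the mRNA deadenylation machinery, stood at 94.6, 89.8, 84.1 and 96.8 in Sham and at 321, 262, 189 and 316.5 in SNL. Btg2 varied little among Sham libraries (coefficient of variation 6.17%), and its log2 difference was 1.54 (SE 0.23, adjusted p = 0.000335). Between the groups neither gene overlapped. Of the 8 genes, 5 had every SNL library above every Sham library, against 22.1% of all genes tested.

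The effect of the G9a inhibitor after ligation was read from SNL plus UNC0638 against SNL, G9a being named in the series title. None of the 8 genes was called in either direction by limma, where 13.5% of all genes tested were called higher and 14.3% lower. At an unadjusted p under 0.05 there was 1, Junb, in the upward direction (42.3% of all genes tested), and limma-voom called 0 of the 8. The median log2 difference of the 8 was -0.14, against 0.00656 over all genes tested. For all 8 the libraries of both groups overlapped, whereas 37.6% of all genes tested had no overlap. The sizes that the intervals allow differ by gene. Fos differed by -0.12 (95% interval -0.81 to 0.57, adjusted p = 0.796), Ier2 by -0.03 (-0.57 to 0.51, adjusted p = 0.934) and Egr1 by -0.13 (-1.20 to 0.93, adjusted p = 0.85). The Egr1 interval is the widest of the 8, whereas that of Jund, -0.64 to 0.16 around -0.24, is the narrowest (adjusted p = 0.338). Btg2 differed by -0.31 (-0.85 to 0.23), Nr4a1 by -0.15 (-0.90 to 0.59) and Fosl1 by -0.41 (-1.25 to 0.43), with adjusted p of 0.354, 0.753 and 0.436.

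Junb had the lowest adjusted p of the 8 in this comparison. It stood at 794, 1710 and 1011 in the SNL plus UNC0638 libraries, against 547 to 839 in SNL, and replicates 2 and 3 lay above every SNL library while replicate 1 lay among them. The log2 difference was 0.63 (95% interval 0.08 to 1.19, adjusted p = 0.0812). When the library with the muscle transcripts was left out it was 0.88 and passed the threshold (adjusted p = 0.0356), and without replicate 2, the library at 1710, it was 0.32 (adjusted p = 0.328). Nr4a1 was called lower in 1 of 25 alternatives, in which the model had a further term shared by Sham replicate 3, SNL replicate 3 and the 3 inhibitor libraries (log2 difference -0.999, adjusted p = 0.00944).

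**Figure D2:**
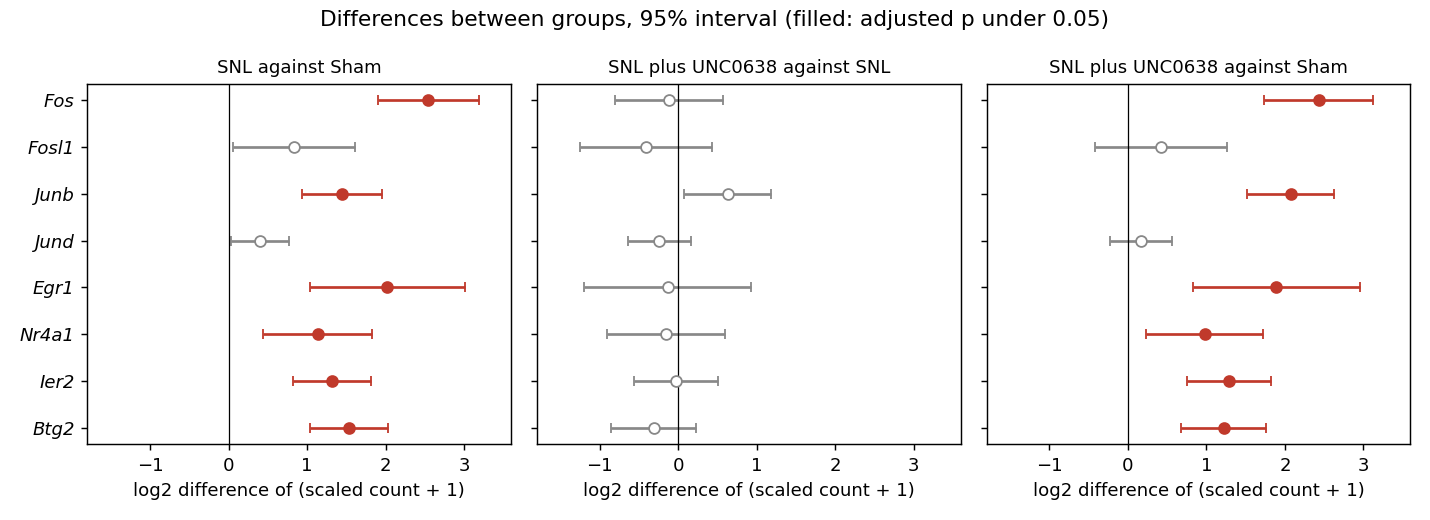
Log2 differences of the 8 genes in the 3 comparisons with 95% intervals from limma; filled red symbols passed an adjusted p of 0.05 and open grey symbols did not. In both comparisons with Sham all 8 symbols lie to the right of 0. The 6 filled ones run from Nr4a1 (1.13 and 0.98) to Fos (2.55 and 2.43), and Fosl1 and Jund are open. In the comparison of the ligated groups all 8 are open.

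Against Sham, the ligated ganglia with UNC0638 gave 6 of the 8 genes higher and 0 lower, where 25.5% of all genes tested were called higher and 26% lower. All 6 at an unadjusted p under 0.05 (57.6% of all genes tested) were higher, and limma-voom also called 6 higher and 0 lower. This comparison shares its Sham libraries with the first one and its inhibitor libraries with the second, so that its values stand beside theirs and are not separate evidence. Fos was 5.6-fold higher in group means (408 ± 163, n = 3, log2 difference 2.43, SE 0.32, adjusted p = 0.000213) and Junb 4.38-fold (1172 ± 478, log2 difference 2.08, SE 0.25, adjusted p = 0.000154). Egr1 stood at 44.8, 58.8 and 47.7, all above the highest Sham library (log2 difference 1.89, SE 0.49, adjusted p = 0.00742). Ier2 (144, 282 and 209) and Btg2 (136, 266 and 271) were also above every Sham library, with log2 differences of 1.29 and 1.22 (adjusted p = 0.00138 and 0.00195). In all, 5 of the 8 genes had every SNL plus UNC0638 library above every Sham library, against 23.4% of all genes tested. Nr4a1 stood at 357, 408 and 351, below Sham replicate 3 in 2 of 3 libraries. Its log2 difference of 0.98 (SE 0.34, adjusted p = 0.0313) missed the threshold when any 1 of 6 libraries was left out: Sham replicate 1, 2 or 4 or SNL plus UNC0638 replicate 1, 2 or 3 (adjusted p 0.0566 to 0.0982). With the further model term it was 0.135 (adjusted p = 0.572). Jund (1428 ± 365, log2 difference 0.17, adjusted p = 0.468) and Fosl1 (32.0 ± 7.5, log2 difference 0.42, adjusted p = 0.381) did not pass.

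Of a list of 51 other immediate early and early response genes, 46 were tested. In SNL against Sham 36 were higher and 1 lower (24.8% and 23.4% of all genes tested), with a median log2 difference of 1.10. The 1 lower was Dusp5, a nuclear phosphatase gene that acts on ERK. With UNC0638 against SNL, 12 of the 46 were lower and 2 higher, the latter being Dusp2 and Dusp5, with a median of -0.22; over all genes tested 14.3% were lower and 13.5% higher. At an unadjusted p under 0.05 there were 20 of the 46, where 42.3% of all genes tested had one, a share near that background. Without SNL plus UNC0638 replicate 1 the list gave 6 lower and 1 higher, where 1317 of 12085 genes were called lower and 1225 higher. With the further model term it gave 5 and 1, where 646 of all genes were called lower and 640 higher. The 12 lower were Gadd45g, Klf10, Atf3, Jun, Plk2, Hes1, Dusp1, Klf6, Ppp1r15a, Id2, Crem and Rgs2. Against Sham, SNL plus UNC0638 had 30 of the 46 higher and 0 lower, with 31 higher and 0 lower at an unadjusted p under 0.05 and 30 and 0 by limma-voom. Summed over the 49 genes in the table, the level was 10350 to 12660 scaled counts in Sham, 28280 to 33780 in SNL and 14370 to 22980 in SNL plus UNC0638. Such a sum weighs highly expressed genes most. Among these Jun, Atf3 and Klf6 had means of 6507, 6267 and 3630 in SNL. Their means in SNL plus UNC0638 were 3197, 1487 and 2252.

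Jun, the main partner of Fos in AP-1, stood at 1113 to 1845 in Sham, at 6040 to 6994 in SNL and at 1883, 3954 and 3754 in SNL plus UNC0638. No library of one group overlapped another group. Its log2 difference was 2.25 with ligation (SE 0.22, adjusted p = 0.000101) and -1.10 with UNC0638 against SNL (SE 0.24, adjusted p = 0.00766). Atf3, a bZIP factor that also pairs with Jun, was at 265.5 to 2393 with UNC0638, all below the SNL libraries (4914 to 7460), and its lowest value was again in replicate 1. Dusp1, a phosphatase that switches off MAP kinases, went from 143 ± 17.2 in Sham to 402 ± 49.2 in SNL and 267 ± 37.8 with UNC0638 (log2 difference from SNL -0.59, SE 0.15, adjusted p = 0.0134). Klf6, a zinc finger factor, was lower than in SNL as well (2252 ± 411 against 3630 ± 565, adjusted p = 0.0168).

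**Figure D3:**
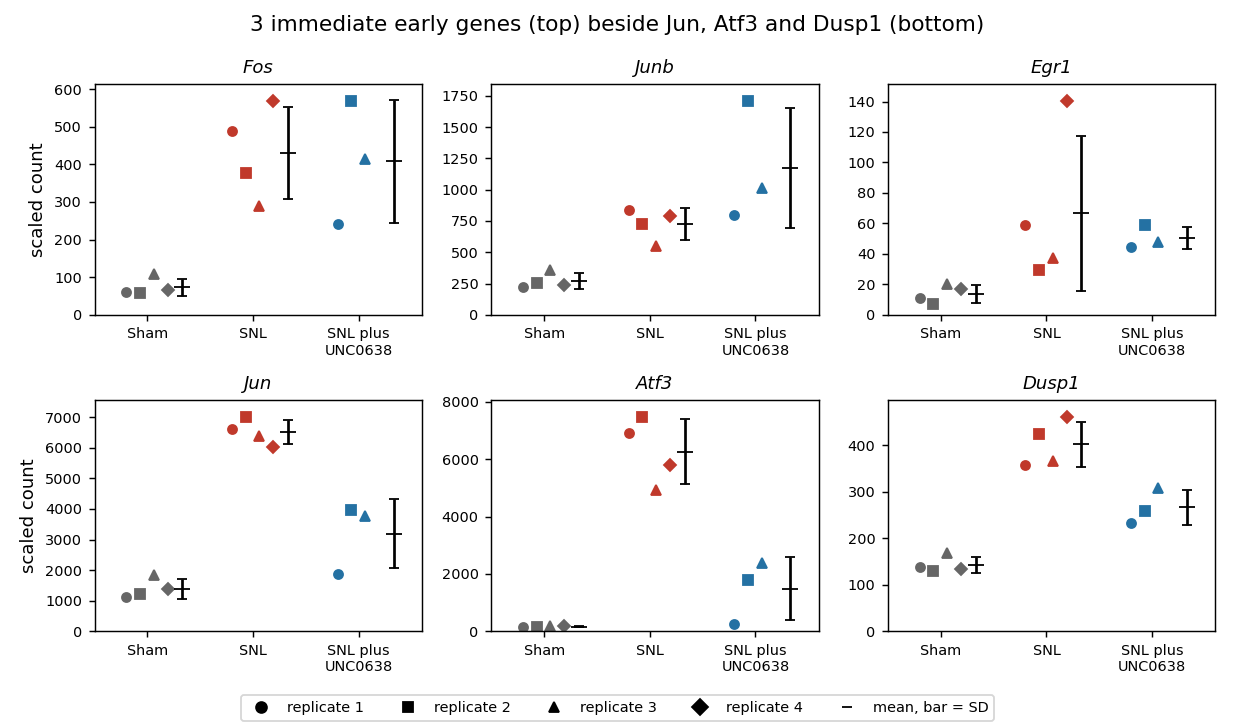
Scaled counts of Fos, Junb and Egr1 (top) and of Jun, Atf3 and Dusp1 (bottom) in every library, with the group mean and SD in black and y axes from 0. In the bottom row every SNL plus UNC0638 library lies below every SNL library, whereas in the top row the ligated groups overlap. The bottom genes are among the 12 of 46 other early genes called lower with UNC0638 against SNL. Of the 46, 2 were called higher and the rest were not called.

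The log2 ratio of 2 genes within each library shows how Junb and Fos stood relative to Jun. These ratios were picked because the genes had been seen to move apart, so they are a description with no test. The log2 ratio of Junb to Jun was -2.38 ± 0.11 in Sham (SD, n = 4), -3.18 ± 0.28 in SNL (n = 4) and -1.45 ± 0.38 in SNL plus UNC0638 (n = 3). That of Fos to Jun ran from -4.46 to -3.41 in the SNL libraries and from -3.18 to -2.80 in the 3 libraries with UNC0638. Neither ratio overlapped between the ligated groups.

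Of the relatives of Egr1 and Nr4a1, Egr2, Egr3, Nr4a2 and Nr4a3 were called higher with ligation. Egr2, a factor that Schwann cells use for myelination, stood at 98.9 ± 34.9 in Sham, 376 ± 66.1 in SNL and 383 ± 174 with UNC0638, and was called higher in both comparisons with Sham (adjusted p = 0.00054 and 0.00115). Egr3 was low, at 10.7 ± 8.92, 34.4 ± 23.7 and 41.5 ± 7.71, and was called in both as well (adjusted p = 0.03 and 0.0118). Egr4 was at 0 in 4 SNL libraries and at no more than 2.31 scaled counts in any library, and was not tested. Nr4a2 (87.7 ± 12.3, 128 ± 16.3 and 169 ± 31.3) and Nr4a3 (8.79 ± 2.90, 22.0 ± 8.17 and 30.1 ± 11.3) had adjusted p of 0.0175 and 0.0132 with ligation. Egr3 and Nr4a3 passed the filter on low values only with the libraries of ligated ganglia, so their calls against Sham are no separate support. Arc, an activity-regulated synaptic gene, was not called in any of the 3 comparisons, with 24.3 ± 9.80, 36.2 ± 10.97 and 18.6 ± 7.43. Zfp36, which destabilizes cytokine and immediate early mRNAs, stood at 40.5 ± 34.8, 123 ± 34.6 and 227 ± 55.4, and rose with ligation (adjusted p = 0.00422). Sham and SNL overlapped, with Sham replicate 3 at 91.9 and SNL replicate 1 at 91.2. Every SNL plus UNC0638 library lay above every SNL library, but Zfp36 was not called in that comparison (adjusted p = 0.161).

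The counts of the next 3 lists are to be read against all genes tested, of which 24.8% were called higher and 23.4% lower with ligation, and 13.5% higher and 14.3% lower with UNC0638 against SNL. These lists share genes with that of other immediate early and early response genes, so their counts are not separate. Jun, Atf3 and Maff are also in the bZIP list, and Dusp1, Dusp6 and Zfp36 in the list of repressors and corepressors. AP-1 partners and related bZIP genes gave 9 higher and 2 lower of 15 tested with ligation, and 1 higher and 3 lower with UNC0638 against SNL, where Atf3, Jun and Atf4 were the lower ones. Batf3, which encodes a short bZIP protein of lymphoid and dendritic cells, was at 0 to 1.56 scaled counts in Sham and at 7.53 to 13.5 in SNL. It passed the filter on low values only through libraries of ligated ganglia. Its call against Sham, counted among the 9, is therefore no separate support. Jdp2, whose product represses AP-1, did not pass in any comparison (95.2 ± 13.6, 106 ± 8.81 and 113.5 ± 16.7). Upstream kinases and factors of the serum and cAMP responses went both ways with ligation, 9 higher and 13 lower of 34 tested, with a median log2 difference of -0.01, the higher count being near the 24.8% of all genes. Serum response factor, Srf, rose from 294 ± 33.9 to 445 ± 46.7 (adjusted p = 0.00381) and its partner Elk1 from 124 ± 12.3 to 178 ± 33.4 (adjusted p = 0.0204). Creb1, which encodes the factor that binds the cAMP response element (adjusted p = 0.0506), and the kinase gene Mapk3 (adjusted p = 0.119) did not pass. With UNC0638 against SNL this list gave 2 higher and 2 lower. Without Sham replicate 3 and SNL replicate 3 it gave 10 higher and 4 lower. In that fit 2790 of all 12085 genes were called higher and 2556 lower.

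Repressors and corepressors of the immediate early factors gave 5 higher and 0 lower of 15 with ligation (7 and 0 at an unadjusted p under 0.05, 6 and 0 by limma-voom). Nab2, a corepressor that binds Egr proteins and is itself induced by them, rose from 359 ± 25.1 to 673.5 ± 94.99 (adjusted p = 0.000521), whereas its relative Nab1 stood at 995 ± 106 and 1016 ± 63.7 (adjusted p = 0.807). With UNC0638 against SNL the list gave 2 higher and 2 lower, near the shares of all genes. Without Sham replicate 3 and SNL replicate 3 it gave 5 and 5, where 2790 of 12085 genes were called higher and 2556 lower. Nab1, 1 of the 2 lower, was at 778 ± 58.9 (adjusted p = 0.0291).

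Within groups, the same libraries were often the extremes for several of the 8 genes. Sham replicate 3 was the highest Sham library for 5 of them (Fos, Junb, Jund, Egr1 and Nr4a1), and Sham replicate 2 the lowest for 5. Among the SNL libraries, replicate 3 was the lowest for Fos, Junb, Ier2 and Btg2 and the highest for Fosl1 and Nr4a1. In the inhibitor group, replicate 2 was the highest for 6 and replicate 1, the library with the muscle transcripts, the lowest for 6. After the group means were removed, 24 of 28 gene pairs had a correlation above 0 over the 11 libraries, with a median r of 0.375. The highest was that of Fos and Junb (r = 0.922), followed by Ier2 and Btg2 (r = 0.852), and the lowest that of Ier2 and Nr4a1 (r = -0.364). Nr4a1 was also below 0 with Btg2 (r = -0.316), and Fosl1 with Ier2 (r = -0.35). These correlations are descriptions over libraries that share depth, scaling and cell content.

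**Figure D4:**
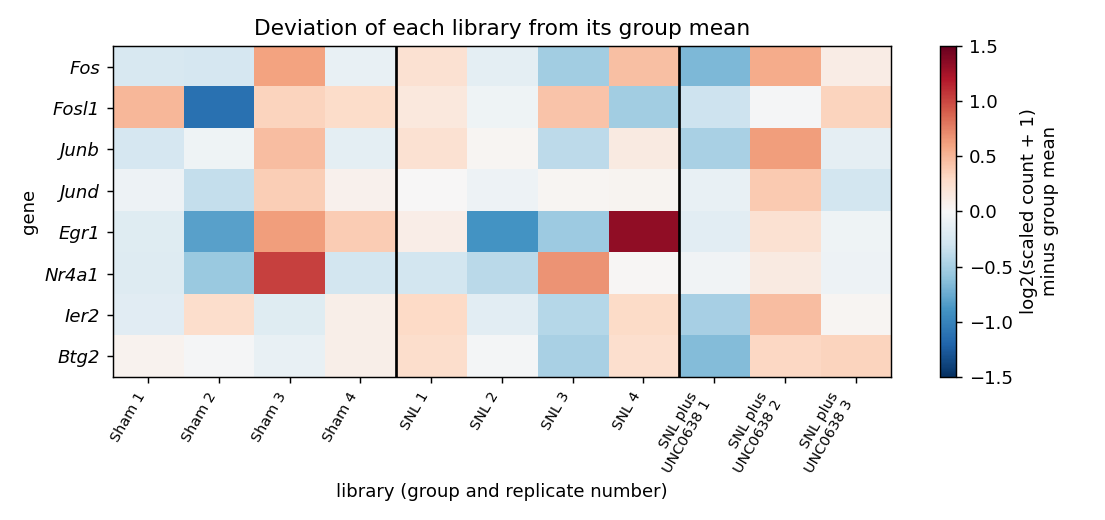
Deviation of log2(scaled count + 1) of each library from its group mean for the 8 genes, red above and blue below, with lines between the groups. SNL plus UNC0638 replicate 1 is below its group mean for all 8 genes, Sham replicate 3 is above it for 6, and Egr1 in SNL replicate 4 (1.34) has the largest deviation.

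The genes most like the 8 were sought as those whose log2 values followed the mean standardized level of the set. Over the 11 libraries these were Rin1 (r = 0.989), Itpripl2, Agxt2l2, Cnksr3 and Col5a1 (r = 0.987 each). After the group means were removed they were Taf6 (r = 0.975), Sardh (r = 0.969), Il17rc (r = 0.965), Sapcd1 (r = 0.958) and Vcam1 (r = 0.956). The 2 sets of 5 share no gene, and with 11 libraries and 12085 genes high values of r are easily reached.

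Markers of several other cell types differed between the groups, and their part in the results above was not tested. The counts with ligation stand beside 24.8% of all genes tested called higher and 23.4% lower. With ligation 17 of 18 tested macrophage and myeloid markers were higher, and their summed level over 19 genes was 3865 to 8243 in Sham, 18560 to 34130 in SNL and 17440 to 32380 in SNL plus UNC0638. Of these genes 1 was at 0 in every library. Fibroblast markers gave 8 higher and 1 lower of 10, with sums of 47760 to 60020, 133000 to 260300 and 61300 to 126900. Endothelial and mural markers gave 8 higher and 0 lower of 9 (8 and 0 at an unadjusted p under 0.05 by limma, 7 and 0 by limma-voom), and 10 genes summed to 2190 to 3506, 4676 to 5576 and 4915 to 7279. Neutrophil markers, 12 genes, summed to 60.7 to 299, 167 to 327 and 864 to 1169. Sensory neuron markers gave 3 higher and 12 lower of 17 with ligation. With the library rich in muscle transcripts left out, 5 of the 8 immediate early genes were higher in SNL plus UNC0638 than in Sham. Nr4a1 was lost (adjusted p = 0.0566), and 3156 of 12085 genes were called higher. In SNL against Sham 6 of the 8 were then higher, beside 3024 of all genes.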

How the data were processed

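The members and the gene lists were chosen with earlier results of these data known. Per the labels, total RNA of dorsal root ganglia was extracted with either Trizol or RNeasy (the labels do not say which sample had which), depleted of ribosomal RNA, made into stranded libraries and read as single ends of 50 bases. Per the labels the reads were aligned to rn4 with TopHat, and the submitters' processing notes name TopHat2 2.0.9 and Cuffdiff 2.1.1. Annotation, counter and strand use: not given in the sources used here. As deposited, the signal values are counts per gene divided by 1 factor per library: 99.1% to 99.7% of low values (up to 20 steps) were whole multiples, within 0.1 of a step, of 1 step per library, and dividing totals by it estimated reads. Precision follows these reads, and covers counting error only.

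Genes with at least 10 scaled counts in at least 3 libraries were tested. Left out after their values were seen were 2 genes at 0 throughout 1 group (Sdc2, Pcdhgc5). limma 3.58.1 (R 4.3.3, statmod 1.5.0) was fitted to log2(value + 1), a mean per group over 11 libraries, with eBayes (trend, robust), two-sided, Benjamini-Hochberg over all genes. Log2 differences carry the added 1, while folds are plain ratios of group means. It was tested on simulated data. All members were named, with further genes from a fixed rule: listed relatives, partners, upstream factors and corepressors, and the 5 genes with the highest correlation with the members. The values of 1 gene under this rule are not reported here. The genes singled out in lists as the only ones called, and the Junb, Fos and Jun ratios, were chosen after their values were seen.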

Additional observations from a re-analysis of the deposited data

Results flagged for a closer look

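In Sham, replicate 3 lay far from the other 3 libraries for 4 of the genes named, each time above them. Fos was at 108 scaled counts against 59.1 to 65.3 in the others, and Nr4a1 at 382 against 127 to 164. Arc was at 39.0 (18.2 to 20.8) and Myc, the growth-related transcription factor gene, at 108 (56.8 to 65.4). In each, the gap to the nearest library exceeded Dixon's 95% critical share of the group's whole range. This check covered 64 combinations of gene and group (Sham and SNL), of which chance alone flags about 1 in 20. No SNL library was flagged for any gene, and the SNL plus UNC0638 group, with 3 libraries, was not checked.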

How the results depend on the processing

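Fos, Junb, Egr1, Ier2, Btg2 and Nr4a1 were called higher in SNL than in Sham in all 25 alternatives at an adjusted p under 0.05, and the first 5 also in SNL plus UNC0638 against Sham. Jund in SNL against Sham passed in 7 of 25, and Nr4a1 in SNL plus UNC0638 against Sham in 18 of 25. Leaving out 1 library at a time gave 6 to 7 members higher in SNL against Sham and 5 to 6 in SNL plus UNC0638 against Sham.

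SNL plus UNC0638 against SNL moved most. There 3356 genes were called, against 2126 with the replicate block, 5346 without Sham replicate 3 and SNL replicate 3, 5315 without these and SNL plus UNC0638 replicate 1, 1286 with the further model term and 1304 at an adjusted p under 0.01. Leaving out 1 library gave 2078 (without SNL replicate 1) to 4466 (without Sham replicate 3). Members called higher went from 0 to 1 (Junb) without SNL plus UNC0638 replicate 1 and with all 3 libraries left out, so that leaving out 1 library gave 0 to 1, and members called lower from 0 to 1 (Nr4a1) with the further term. At an adjusted p under 0.01, 3780 genes (5823 at 0.05) were called in SNL against Sham and 4129 (6220) in SNL plus UNC0638 against Sham. The cause of these shifts was not tested.

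Signs changed only for differences that were not called. In SNL plus UNC0638 against SNL, the log2 difference of Fos was 0.0442 with the 3 libraries left out and -0.398 to 0.218 with 1 left out. Egr1 was 0.151 with the replicate block and -0.433 to 0.311 with 1 left out. Ier2 was 0.0326 with the block, 0.0758 with 3 left out, 0.274 with the further term and -0.261 to 0.218 with 1 left out. Btg2 was -0.481 to 0.0115 with 1 left out. Nr4a1 was 0.0687 without Sham replicate 3 and SNL replicate 3, 0.0969 with 3 left out and -0.291 to 0.0687 with 1 left out. Jund in SNL plus UNC0638 against Sham was -0.0378 with the further term and -0.0324 to 0.306 with 1 left out.

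The replicate block changed no call of a member. Of 10 pairs of libraries with the same number, 2 had a correlation of deviations over 0.1 (-0.446 to 0.431). Of 30 pairs with other numbers 12 had one (-0.354 to 0.429). A pairing by number was thus not seen, but such correlations cannot exclude an animal or batch shared by equal numbers. The other scalings, filters and pseudocounts left every count of genes within 1.5 times. The planned edgeR and DESeq2 fits were not run, since the values are not whole reads. limma-voom on estimated reads, chosen after seeing the data, took their place. Depth limits Fosl1 and Egr1 most, with as few as 9 and 6 estimated reads in a Sham library.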
